A study of Mus musculus with 22 samples.

Results

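The 1 Mb regions of the mouse genome in which 5-hydroxymethylcytosine (5hmC) was highest in olfactory bulb relative to cortex held 12 of 25 genes listed as markers or regulators of olfactory bulb neurons, among them Erbb4, Meis2, Tshz1 and the Dlx genes. Over several of these genes the level of 5-methylcytosine (5mC), read in separate libraries, was lower in olfactory bulb than in cortex. Of the coding genes compared, 4.13% lay in the regions, and 18.9% of those of at least 300 kb. The gene list was chosen with earlier results of these data known, so its count is a description. The regions were chosen from the 5hmC levels of TAB-seq libraries, an assay that shields 5hmC with a sugar group before TET oxidation of the remaining 5mC, which leaves 5hmC as the base that bisulfite does not convert. Of 2641 bins of 1 Mb, 2470 lay on autosomes, and 2270 of these had a mean cortex 5hmC level of at least 0.1 and were eligible. The 200 eligible bins with the highest ratio of the mean olfactory bulb level to the mean cortex level are described here as the bulb-biased bins. Because these values chose the bins, the difference in 5hmC between both tissues is given as a description with no test.

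All libraries were from C57BL/6 mice at 8 weeks of age, with no genetic change or treatment, and the study describes the mice as female. The whole cerebral cortex without the hippocampus, the whole olfactory bulb and the whole cerebellum were taken, with replicates from independent mice. There were 3 TAB-seq libraries per tissue, and 5mC was measured by oxBS-seq, where a chemical oxidation removes 5hmC from the signal before bisulfite conversion, in 3 cortex, 2 olfactory bulb and 2 cerebellum libraries. A level is a fraction between 0 and 1, and the deposited levels carry no read counts, so their depth is unknown and the SD between libraries is the only error that can be given. Each tissue is a mixture of cells, and a different share of a cell type cannot be told apart from a different level within its cells. No marker of a cell type could be checked, since the RNA-seq libraries were not used here.

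5mC is written by DNA methyltransferases, and TET enzymes oxidize it to 5hmC, which is abundant in neurons and is known to accumulate over the bodies of genes that neurons express. In the olfactory bulb most neurons are inhibitory interneurons, the granule and periglomerular cells, which keep arriving in adult life from the wall of the lateral ventricle. The homeobox genes Dlx1, Dlx2, Dlx5, Dlx6 and Meis2 and the zinc finger genes Tshz1 and Sp8 act in the formation of these cells, and Gad1 and Gad2 encode the enzymes that make GABA. In cortex most neurons are excitatory, and in cerebellum nearly all are small excitatory granule neurons.

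The bins are too long to print, and the sequences shown are the 250 bases before the start of 3 genes in the leading bins, where CpG sites, the substrate of both marks, can be seen. They are from RefSeq on build GRCm38.p6, printed from 5′ to 3′ along the gene, with each CpG in capitals. Erbb4 (chr1:69108060-69108309, minus strand) and Adarb2 (chr13:8202616-8202865, plus strand) had the longest overlap among coding genes in the bins ranked 2 and 3, since the bin ranked 1 held no coding gene. Sox2 (chr3:34649745-34649994, plus strand) lies in the bin ranked 6 and was added after its values were seen.
Erbb4: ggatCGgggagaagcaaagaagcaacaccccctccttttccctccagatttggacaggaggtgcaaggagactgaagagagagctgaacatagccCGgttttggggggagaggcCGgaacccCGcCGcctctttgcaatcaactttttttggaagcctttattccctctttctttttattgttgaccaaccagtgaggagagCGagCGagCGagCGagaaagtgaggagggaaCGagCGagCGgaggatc
Adarb2: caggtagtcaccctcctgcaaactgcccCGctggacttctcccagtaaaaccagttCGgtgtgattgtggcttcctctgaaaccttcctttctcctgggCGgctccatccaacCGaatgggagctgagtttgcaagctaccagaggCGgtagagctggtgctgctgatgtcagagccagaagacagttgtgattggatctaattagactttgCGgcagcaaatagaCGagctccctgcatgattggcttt
Sox2: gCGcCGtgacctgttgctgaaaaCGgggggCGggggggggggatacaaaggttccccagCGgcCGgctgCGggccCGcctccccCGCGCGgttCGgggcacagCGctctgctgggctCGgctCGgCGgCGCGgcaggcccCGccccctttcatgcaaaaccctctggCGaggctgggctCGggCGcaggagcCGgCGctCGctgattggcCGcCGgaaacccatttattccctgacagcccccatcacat
The windows hold 12, 7 and 27 CpG sites, beside a median of 6 over the 32851 promoters of the same length in the RefSeq table. The 100 kb bin around the Adarb2 start had 5mC levels of 0.670, 0.655 and 0.628 in the cortex libraries and of 0.535 and 0.538 in the olfactory bulb libraries (log2 ratio change −0.69, SE 0.117, adjusted p = 3.88e-07 by limma). Around the Sox2 start the levels were 0.360, 0.325 and 0.343 in cortex and 0.331 and 0.285 in olfactory bulb, which overlapped and did not pass the test (adjusted p = 0.102 by limma). The Erbb4 start lies past the end of its bulb-biased bin, in a 100 kb bin at 0.628 in cortex and 0.650 in olfactory bulb (adjusted p = 0.328 by limma).

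The ratio of olfactory bulb to cortex 5hmC ran from 1.02 to 1.45 in the bulb-biased bins, with a median of 1.07, and from 0.521 to 1.02 in the other 2070 eligible bins, with a median of 0.869. The bulb-biased bins had a mean 5hmC level of 0.189 ± 0.0101 in cortex and of 0.206 ± 0.00493 in olfactory bulb (SD, n = 3 each). The other eligible bins had 0.175 ± 0.0102 in cortex and 0.152 ± 0.00448 in olfactory bulb. In 84 of the 200 bins every olfactory bulb library was above every cortex library, and the same 84 bins made up the 3.70% of eligible bins with that order, which the choice of bins fixes. The threshold fell in a continuous range of ratios. Just inside it lay a bin with Plpp4 and Wdr11 (chr7:129000001-130000000) at 0.185 in cortex and 0.190 in olfactory bulb, and a bin mostly covered by Cntnap2, a neurexin-like adhesion gene (chr6:45000001-46000000), at 0.177 and 0.181. Just outside it lay a bin with Cdh20 (chr1:104000001-105000000) at 0.155 and 0.159 and a bin with Paqr5, Tle3 and Kif23 (chr9:61000001-62000000) at 0.214 and 0.219.

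To see whether the order carried over to libraries not used to rank, the ranking was repeated without 1 replicate number of both tissues. The 200 bins so chosen, which held 189, 192 and 191 of the bulb-biased bins, had median ratios of 1.08, 1.05 and 1.11 in the left-out libraries of replicates 1, 2 and 3. Over all eligible bins these medians were 0.874, 0.855 and 0.915. The left-out ratio was above 1 in 191, 171 and 200 of the 200 bins, where 12.2%, 8.30% and 19.3% of eligible bins were above 1.

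The highest ratio, 1.45, belonged to a bin on chromosome 8 (chr8:50000001-51000000) that holds no coding gene. Its 5hmC levels were 0.135, 0.142 and 0.128 in the cortex libraries, 0.20004, 0.19709 and 0.19117 in the olfactory bulb libraries and 0.0520, 0.0518 and 0.0551 in the cerebellum libraries. The tissues did not overlap, and cerebellum was lowest. Non-coding genes, Gm45341, Gm45455 and C130073E24Rik by longest overlap, and others cover 58.7% of it together. The bin before it (chr8:49000001-50000000), also without a coding gene, ranked 5 with a ratio of 1.32. Together with the next bin towards the chromosome's start (rank 30), which holds the teneurin gene Tenm3, whose product guides the matching of connected neurons, they formed a run of 3 bulb-biased bins with a mean ratio of 1.31. Both bins without a coding gene lie before the start of Tenm3, which is read from the minus strand and whose start lies 156 kb from the nearer of them.

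The bin ranked 2 (chr1:68000001-69000000) lies almost wholly within Erbb4, the neuregulin receptor that guides migrating interneurons. Its 5hmC levels were 0.1642, 0.1776 and 0.1502 in cortex, 0.236, 0.236 and 0.229 in olfactory bulb and 0.135, 0.146 and 0.148 in cerebellum. Olfactory bulb was well above both other tissues, which came close to each other. Adarb2, a brain member of the family of RNA-editing enzymes, covers most of the bin ranked 3 (chr13:8000001-9000000), with 0.1631, 0.1748 and 0.1504 in cortex, 0.224, 0.233 and 0.225 in olfactory bulb and 0.0929, 0.0936 and 0.0983 in cerebellum. Nrxn3, a neurexin that joins presynaptic terminals to their partners, spans the bin ranked 4 (chr12:89000001-90000000), with 0.213, 0.225 and 0.203 in cortex, 0.289, 0.291 and 0.283 in olfactory bulb and 0.151, 0.157 and 0.156 in cerebellum. The bin before it, with the start of Nrxn3, Adck1 and Gm10436, ranked 12 (ratio 1.19), and the bin after it made a further run of 3.

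The other bins among the 12 of highest ratio held genes for transcription factors, a receptor and RNA-binding proteins. Sox2, a factor of neural stem cells and glia, shares the bin ranked 6 with Fxr1 and Dnajc19 (ratio 1.27). Arpp21, a phosphoprotein of neurons that respond to dopamine, was in the bin ranked 7 (1.24), and the metabotropic glutamate receptor gene Grm8 covers most of the bin ranked 8 (1.24). The bin ranked 9 (chr2:115000001-116000000) holds BC052040 and most of Meis2, with 5hmC at 0.190, 0.206 and 0.185 in cortex, 0.242, 0.245 and 0.232 in olfactory bulb and 0.0717, 0.0722 and 0.0747 in cerebellum. Meis1, the paralog of Meis2, followed at rank 10 (1.22) and Celf2, which encodes an RNA-binding regulator of splicing, at rank 11 (1.20). In all of these 12 bins every olfactory bulb library was above every cortex library.

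**Figure D1:**
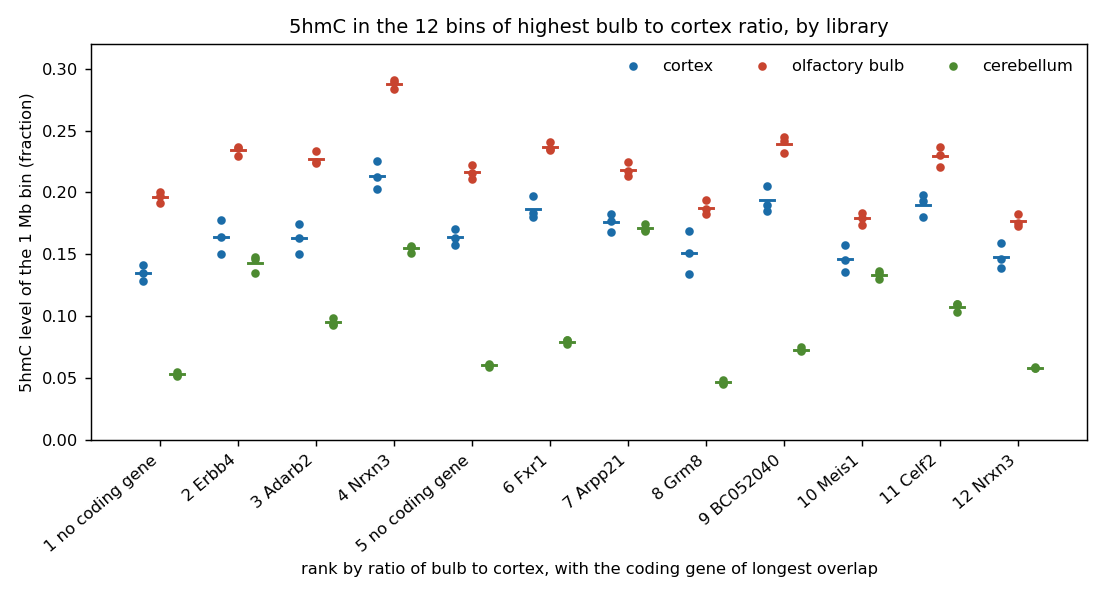
5hmC level as a fraction in the 12 bins with the highest ratio of olfactory bulb to cortex, ordered by rank and named by the coding gene of longest overlap; each point is a TAB-seq library and each short line the mean of 3. Olfactory bulb lies above cortex in every bin, and cerebellum varies from 0.0466 in the Grm8 bin to 0.171 in the Arpp21 bin.

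Cerebellum libraries were not used to choose the bins. Their mean 5hmC level was 0.119 ± 0.00208 in the bulb-biased bins and 0.101 ± 0.00188 in the other eligible bins (SD, n = 3), and the difference of 0.0180 ± 0.000709 lay between 0.0173 and 0.0187 in each of the 3 libraries. The bulb-biased bins had the higher level in every library. The difference in cortex was 0.0139 ± 0.000309, and cortex and olfactory bulb levels entered the choice, so these differences were not tested against each other. Cerebellum was the lowest tissue in most bulb-biased bins, as in the others: every cortex library was above every cerebellum library in 184 of the 200 bins (97.5% of eligible bins), and every olfactory bulb library was above every cerebellum library in 196 (94.5% of eligible bins).

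Within the bulb-biased bins cortex ran from 0.101 to 0.253 and olfactory bulb from 0.108 to 0.288. The rule keeps low levels of both tissues out, so their spread is not compared with that of cerebellum. Cerebellum ran from 0.0341 to 0.271 in these bins and from 0.0233 to 0.284 in the other eligible bins. Among the bulb-biased bins the highest cerebellum level was in the bin of Ntm, which encodes the adhesion protein neurotrimin, at 0.271, 0.269 and 0.272 in the cerebellum libraries, the level that ranked 2 among all eligible bins. It was the only bulb-biased bin with a mean above that of olfactory bulb, which was 0.261, and its mean was also above the 0.253 of cortex. Next came the bins of Pde4d, a phosphodiesterase that degrades cAMP, at 0.225 ± 0.00503, of Kirrel3, an adhesion gene, at 0.219 ± 0.0100, of Auts2, a gene tied to neuronal development, at 0.217 ± 0.00563, and of Dlgap1, a postsynaptic scaffold gene that shares its bin with Myl12b, at 0.2137 ± 0.001002. These levels ranked 5, 7, 8 and 10 of 2270. The lowest levels were in a bin with the adenylyl cyclase gene Adcy2 and Mtrr at 0.0341 ± 0.00143, in a bin whose only coding gene is Gm20594 at 0.0373 ± 0.00219, and in 3 bins without a coding gene, on chromosomes 13, 7 and 10, at 0.0382, 0.0418 and 0.0455. Across the 200 bins, cerebellum 5hmC went with the share of the bin covered by coding genes (Pearson's r = 0.46, Spearman's rho = 0.46), as across all 2270 eligible bins (0.58 and 0.59), where bins share libraries and are not independent replicates.

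**Figure D2:**
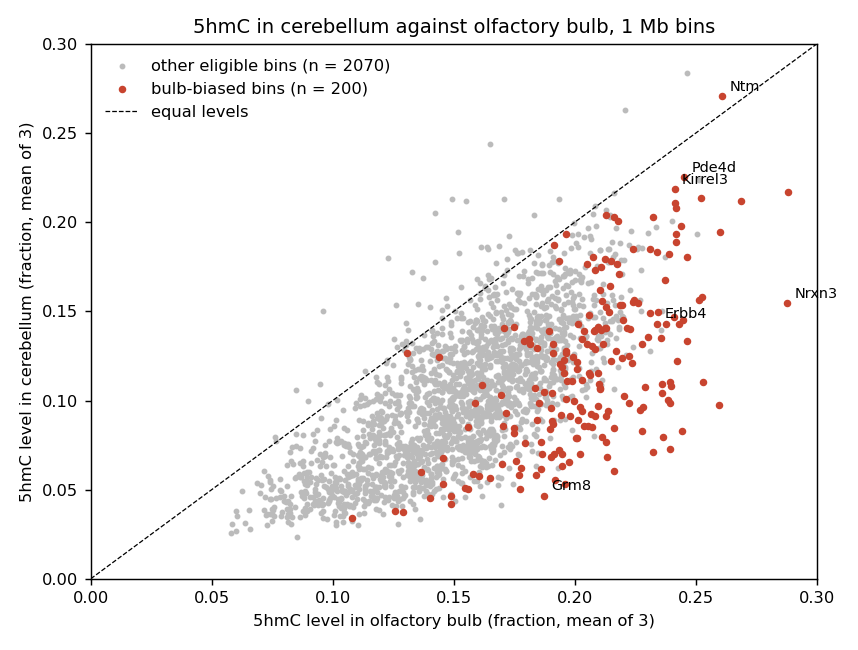
Mean 5hmC level as a fraction in cerebellum against olfactory bulb (n = 3 libraries each); each point is a 1 Mb bin, in red for the 200 bulb-biased bins and in grey for the other 2070 eligible bins, and the dashed line marks equal levels. The red points reach further right at a given cerebellum level, which the choice of bins fixes, and only the Ntm bin lies above the line among them.

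Genes were not used to choose the bins. A gene was counted in the bulb-biased bins where at least 50% of its length lay in them, which held for 772 of the 18712 protein-coding genes in eligible bins (4.13%). Long genes made up more of these than of the rest: 101 of 535 genes of at least 300 kb lay in the bulb-biased bins (18.9%), and coding genes there had a median length of 36.2 kb against 19.1 kb in the other eligible bins. A gene of at least 300 kb touched 111 of the 200 bins (55.5%) and 625 of the 2070 others (30.2%). The median bin held 2 starts of coding genes against 5.5 in the others. The share of a bin covered by coding genes, however, was alike, at a median of 43.7% against 44.9%, as were the GC content (41.5% against 41.9%) and the number of CpG sites (8030.5 against 8246.5). No coding gene lay in 14 of the 200 bins (7%) and in 8.6% of the others. These features are from the annotation, and the differences are given as a description.

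The bulb-biased bins were spread over all 19 autosomes, from 1 of 56 eligible bins on chromosome 19 (1.79%) to 14 of 87 on chromosome 18 (16.1%) and 18 of 110 on chromosome 12 (16.4%). They formed 157 separate stretches, with 76 bins next to another and 10 runs of 3 bins, the longest found. Apart from the Erbb4, Nrxn3 and Tenm3 runs, these included the run of Bcl11a, the run of Auts2 and Galnt17, the run that holds Gad1, Dlx1 and Dlx2 beside Myo3b and Rapgef4, and those of Zfp608 and March3, of Lrba and Fbxw7 and of Camta1 and Ajap1.

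Of the 11 gene lists compared, the list of olfactory bulb interneuron and projection neuron genes had 12 of 25 genes in the bulb-biased bins (48%), where 4.13% of all coding genes and 18.9% of those of at least 300 kb were. They were Erbb4, Gad2, Gad1, Dlx1, Dlx2, Meis2, Dlx5, Dlx6, Etv1, Sp8, Synpr and Tshz1. Dlx1 and Dlx2 lie in the same bin, as do Dlx5 and Dlx6, so the 12 genes stand for fewer regions. The genes of glutamate and GABA receptors came next with 8 of 34 (23.5%), then cerebellar granule neuron genes with 3 of 18, synaptic adhesion genes with 6 of 38, cortical excitatory neuron genes with 3 of 22 and axon guidance genes with 5 of 37. Astrocyte genes had 1 of 15, genes of the Wnt pathway 2 of 42, and oligodendrocyte and myelin genes (16), hedgehog pathway genes (15) and genes of DNA methylation and oxidation (15) had 0. Etv1 is on both the olfactory bulb and the granule neuron list, and synaptic, receptor and guidance genes include many long genes. The lists were chosen with earlier results of these data known, so their shares are a description.

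The 5mC levels came from oxBS-seq libraries that had no part in the choice of bins. They were tested in bins of 100 kb with limma on log2(level/(1 − level)), called a log2 ratio here, over all 25664 bins tested, and a bin was called at a Benjamini-Hochberg adjusted p under 0.05. All 2000 bins of 100 kb in the bulb-biased bins were tested. In olfactory bulb against cortex, 5mC fell in 275 of them (13.8%), where 2.18% of all bins tested were called lower, and rose in 309 (15.5%), where 37.6% of all bins were called higher. The median change was 0.05 in the bulb-biased bins and 0.24 in the other eligible bins. The mean 5mC level of the bulb-biased bins was 0.667 ± 0.0140 in cortex (n = 3) and 0.667 ± 0.00491 in olfactory bulb (n = 2), while that of the other eligible bins was 0.671 ± 0.0148 and 0.705 ± 0.00311. The genome-wide rise of 5mC from cortex to olfactory bulb was thus not seen in the mean of these bins. Cortex replicate 3 lay lower in the bulb-biased bins, at 0.651, than the other cortex libraries, at 0.673 and 0.677.

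The split into falls and rises depends on scale. Over all bins the median change from cortex to olfactory bulb was 0.22, and subtracting each library's median moved it by 0.23. With that centring 39.7% of the 100 kb bins in the bulb-biased bins were called lower and 2.4% higher, where 9.90% and 8.81% of all bins were. Rises given below are relative to the uncentred levels, and those of single bins can vanish when centred. Leaving out either olfactory bulb library also lowered the counts, to 7.65% without replicate 1 and 5.85% without replicate 2, where 1.18% and 0.904% of all bins were called lower. The bins called higher went to 3.55% and 5.15% without these libraries and to 10% without cortex replicate 3, where 11.82%, 15.41% and 27.13% of all bins were.

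**Figure D3:**
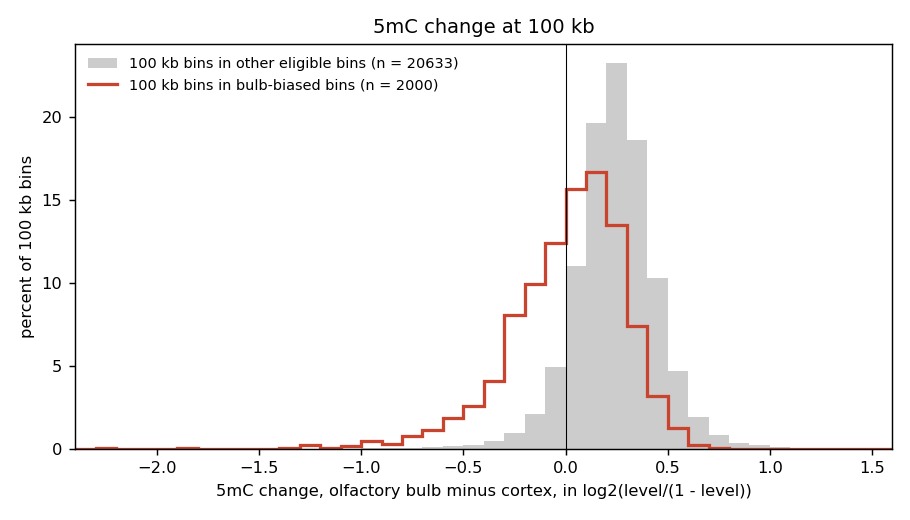
Change of 5mC from cortex to olfactory bulb in log2(level/(1 − level)) for bins of 100 kb, as the percent of bins in each step of 0.1; the red line shows the 2000 bins inside the bulb-biased bins and the grey area the 20633 inside the other eligible bins. The red line is shifted to lower values, with a median of 0.05 against 0.24, and has a longer tail of falls.

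Against cerebellum, 5mC in the bulb-biased bins was mostly lower in both other tissues. It was higher in cerebellum than in cortex in 1673 of the 2000 bins (83.7%), where 71.9% of all bins were called higher, and lower in 72 (3.6%), where 4.44% were. Of the bins in the other eligible bins, 79.6% were higher and 2.27% lower, so the shares differed little. 5mC was higher in cerebellum than in olfactory bulb in 1447 of the 2000 (72.4%), where 35.3% of all bins were, and lower in 66, where 7.69% were. In the other eligible bins 36.6% were higher and 4.50% lower. The mean cerebellum 5mC level of the bulb-biased bins, 0.737 ± 0.0117 (n = 2), lay close to the 0.732 ± 0.0115 of the other eligible bins. With each library's median subtracted, 40.75% were higher and 13.9% lower in cerebellum than in cortex, where 25.74% and 24.29% of all bins were, and 59.55% were higher and 7.25% lower than in olfactory bulb, where 22.1% and 21.27% were. Uncentred, the bins lower in cerebellum than in olfactory bulb, 3.3%, went to 2% without olfactory bulb replicate 1 or without cerebellum replicate 2. Averaged to 1 Mb, 5mC was higher in cerebellum than in cortex in 182 of the 200 bins (91%), where 82.5% of all bins were, and lower in 1, where 3.02% were. Of the other eligible bins 92.1% were higher and 0.338% lower, so the bulb-biased bins did not stand out. Cerebellum was higher than olfactory bulb in 176 (88%), where 49.8% of all bins were, and lower in 1, where 7.36% were. Of the other eligible bins 53.3% were higher and 2.27% lower.

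The falls were most frequent within genes. Of the 566 bins of 100 kb in the bulb-biased bins that lie wholly within coding genes, 148 were called lower in olfactory bulb than in cortex (26.1%), and their mean 5mC went from 0.643 ± 0.0122 to 0.628 ± 0.00546. Of the 783 without a coding gene, 42 were called lower (5.36%), with mean levels of 0.711 ± 0.0144 and 0.722 ± 0.00244. Of the 3190 bins wholly within coding genes in the other eligible bins, 86 were called lower (2.70%), and their mean went from 0.665 ± 0.0136 to 0.706 ± 0.00285. At least 1 bin of 100 kb was called lower in 119 of the 200 bulb-biased bins, where 13.9% of all eligible bins had one, and 5 or more in 10, where 0.485% did.

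Averaged to 1 Mb, 5mC was called lower in olfactory bulb than in cortex in 15 of the 200 bins (7.5%), where 0.697% of all 2581 bins were called lower, and higher in 22 (11%), where 60.8% were. The 15 bins made up most of the 18 called lower in the genome. With each library's median subtracted, 80.5% were called lower and 0.5% higher, where 24.76% and 23.91% of all bins were. The uncentred shares moved with single libraries. Without cortex replicate 3, 25.5% were called lower and 10% higher, where 2.48% and 54.24% of all bins were. Leaving out either olfactory bulb library leaves 1 of that tissue. Fewer bins were then called in both directions, in the bulb-biased bins and over all bins. The largest fall was in a bin with the 5′ part of Auts2 (chr5:132000001-133000000), from 0.660, 0.680 and 0.646 in cortex to 0.571 and 0.558 in olfactory bulb, with 0.751 and 0.735 in cerebellum (log2 ratio change −0.60, SE 0.0835, adjusted p = 1.56e-10 by limma). The 3 tissues did not overlap, and olfactory bulb was lowest. In the Meis2 bin 5mC fell from 0.699, 0.710 and 0.676 to 0.606 and 0.605 (−0.57, adjusted p = 9.45e-10 by limma). In the bin of Zfp407, Tshz1 and Fbxo15 (chr18:84000001-85000000) it fell from 0.671, 0.670 and 0.644 to 0.594 and 0.586 (−0.44, adjusted p = 3.44e-06 by limma). The Nrxn3 bin ranked 4 was also among those called lower (−0.38).

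The largest rises were smaller. In the bin that holds Grin2a, which encodes a subunit of the NMDA receptor (chr16:9000001-10000000), 5mC rose from 0.649, 0.655 and 0.629 in cortex to 0.692 and 0.690 in olfactory bulb (log2 ratio change 0.31, SE 0.0835, adjusted p = 0.00120 by limma), and this rise passed the test also with each library's median subtracted (0.09, adjusted p = 0.0154), but not without olfactory bulb replicate 1 (adjusted p = 0.0519). Rises were also called in the bins of Otud7a, Chrna7 and Klf13 (0.28), of Brinp1 (0.28), of Syt1, Ppp1r12a and Pawr (0.23) and of Celf2 (0.23), and none of these 4 passed when centred, with values of 0.07, 0.06, 0.01 and 0.02, or without either olfactory bulb library. In these 5 bins both marks had a higher level in olfactory bulb than in cortex.

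Among the bins of highest 5hmC ratio, 5mC also fell in those of Adarb2 (−0.33, adjusted p = 0.000529 by limma), Sox2 (−0.28, adjusted p = 0.00252) and the start of Nrxn3 (−0.26, adjusted p = 0.00633). In the remaining bins of the 12 the changes did not pass the test: −0.10 and −0.17 in the bins ranked 1 and 5 without a coding gene, −0.11 in Erbb4, −0.15 in Meis1, 0.11 in Arpp21 and −0.00021 in Grm8. With each library's median subtracted all 6 of these bins were called lower, at −0.32 and −0.38 in the bins ranked 1 and 5, −0.33 in Erbb4, −0.36 in Meis1, −0.21 in Grm8 and −0.11 in Arpp21, where the direction turned (adjusted p up to 0.0225 by limma). Without cortex replicate 3 the uncentred changes in the bins ranked 1 and 5, in Erbb4 and in Meis1 also passed, at −0.16, −0.24, −0.18 and −0.21 (adjusted p up to 0.0244). The falls in the bins of Sox2 and the start of Nrxn3 did not pass without 1 of the olfactory bulb libraries (adjusted p = 0.078 and up to 0.0844).

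Over bulb neuron genes such as Tshz1 and Meis2 the falls were larger at 100 kb than at 1 Mb. Of the 26 bins of 100 kb that overlap genes of this list inside the bulb-biased bins, 13 fell and 0 rose from cortex to olfactory bulb, and of the 35 outside, 4 fell and 7 rose. Of all 2000 bins inside, 13.8% fell and 15.5% rose. Of those wholly within coding genes 26.1% fell and 12.9% rose, and of those partly within them 13.1% and 15.2%. The list was chosen with earlier results of these data known, so its counts are a description. The largest fall of all bins in the bulb-biased bins was over Tshz1 and Zadh2 (chr18:84000001-84100000), from 0.570, 0.575 and 0.556 in cortex to 0.240 and 0.201 in olfactory bulb, with 0.601 and 0.562 in cerebellum (log2 ratio change −2.22, SE 0.118, adjusted p = 1.00e-62 by limma). Olfactory bulb stood far below both other tissues. A bin within Meis2 (chr2:115900001-116000000) went from 0.642, 0.621 and 0.618 to 0.303 and 0.340, with 0.786 and 0.778 in cerebellum (−1.83, adjusted p = 1.16e-44), and the bin before it from 0.567 ± 0.0327 to 0.361 ± 0.0108 (−1.21). Large falls also lay over genes not on the list. A bin within Auts2 (chr5:132300001-132400000) went from 0.608 ± 0.0227 to 0.403 ± 0.0197 (−1.20), and the bin before it from 0.632 ± 0.0126 to 0.446 ± 0.00790 (−1.09). A bin over Zfp407 (chr18:84500001-84600000) went from 0.622 ± 0.0271 to 0.420 ± 0.0293 (−1.19).

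The Dlx pairs changed alike. Over Dlx5 and Dlx6 (chr6:6800001-6900000) 5mC fell from 0.391, 0.368 and 0.378 in cortex to 0.207 and 0.194 in olfactory bulb, with 0.433 and 0.425 in cerebellum (log2 ratio change −1.29, adjusted p = 5.24e-23 by limma). Over Dlx1 and Dlx2 (chr2:71500001-71600000) it fell from 0.429, 0.446 and 0.428 to 0.308 and 0.288, with 0.508 and 0.477 in cerebellum (−0.86, adjusted p = 1.10e-10). Both bins were the lowest in olfactory bulb, with no overlap between tissues. Falls were also called over Synpr, which encodes the synaptic vesicle protein synaptoporin, in 3 of 5 bins (largest −0.81), over Gad1 in 1 of 2 (−0.62), over Etv1, a factor of the ETS family, in 1 of 2 (−0.65) and over Gad2 (−0.32, adjusted p = 0.0240). Etv1 differed from the rest in that cerebellum was lower still, at 0.547 ± 0.00778 against 0.608 ± 0.0115 in olfactory bulb and 0.708 ± 0.0379 in cortex. Sp8 did not pass the test, at 0.414 ± 0.0386 in cortex and 0.399 ± 0.0107 in olfactory bulb (adjusted p = 0.535), but was called lower with each library's median subtracted (−0.31, adjusted p = 0.0178).

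In Erbb4, with the 5hmC ratio ranked 2, few bins of 100 kb passed the test for 5mC. Of its 10 bins of 100 kb in the bulb-biased bin, 2 fell, and the larger change was from 0.732, 0.727 and 0.706 in cortex to 0.692 and 0.668 in olfactory bulb (log2 ratio change −0.29, adjusted p = 0.0382 by limma). This call, like that of Gad2, was lost without cortex replicate 1 or 2, without either olfactory bulb library or with all bins kept, with adjusted p up to 0.342 for Erbb4 and 0.2004 for Gad2. Over the whole 1 Mb bin of Erbb4 the change passed when centred and without cortex replicate 3, as given above.

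**Figure D4:**
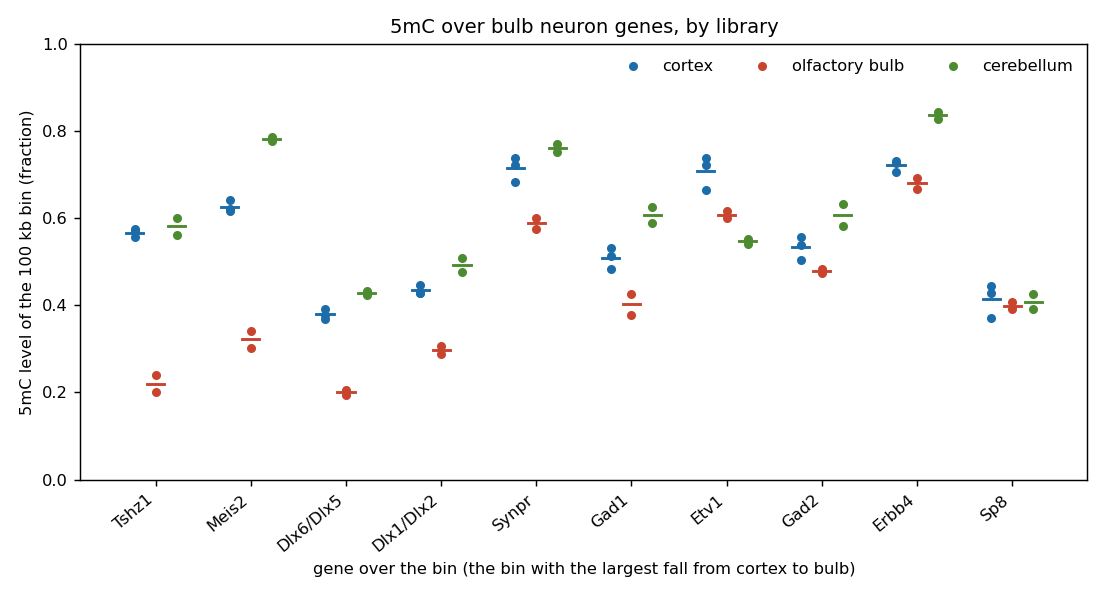
5mC level as a fraction in bins of 100 kb over genes of the olfactory bulb neuron list, each gene by its bin with the lowest olfactory bulb level relative to cortex; each point is an oxBS-seq library and each short line a mean (3 libraries of cortex, 2 of olfactory bulb, 2 of cerebellum). Olfactory bulb lies below cortex without overlap for all but Sp8, with a difference from −0.346 over Tshz1 to −0.0420 over Erbb4.

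For synaptic adhesion, receptor, axon guidance, cortical excitatory neuron and astrocyte genes more falls lay inside the bulb-biased bins than outside. The same contrast held over all bins of 100 kb. Inside, 13.8% fell and 15.5% rose, and in the other eligible bins 1.29% fell and 42.8% rose. The contrast is thus not particular to these genes. Of the synaptic adhesion genes' bins of 100 kb, 16 of 62 fell and 7 rose inside, while 1 of 263 fell and 211 rose outside. Receptor genes had 6 falls and 6 rises in 35 bins inside and 2 falls and 67 rises in 111 outside, and axon guidance genes 5 falls and 2 rises in 27 inside and 1 fall and 77 rises in 124 outside. The cortical excitatory neuron genes had 2 falls and 1 rise in 5 bins inside, in Bcl11a (0.561 to 0.465) and Bcl11b (0.505 to 0.413), a pair of zinc finger genes that act in cortical projection neurons, and 0 falls and 30 rises in 42 outside. In Mef2c, the third of these genes in the bulb-biased bins, the bin with the lowest change did not pass the test (0.425 to 0.433). Astrocyte genes had 3 falls and 0 rises in 3 bins inside, all of Slc4a4, a bicarbonate transporter gene (largest from 0.676 to 0.590), and 2 falls and 9 rises in 29 outside.

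Among granule neuron genes 1 bin of 3 inside fell, that of Etv1 above, and 1 rose, that of Zic1 and Zic4 (0.318 to 0.364, adjusted p = 0.0317 by limma, with the call lost when centred, at 0.551, with all bins kept, at 0.0591, and without cortex replicate 1 or 3 or either olfactory bulb library, at 0.0558 to 0.367), while 1 fell and 7 rose in 21 outside. The Wnt pathway genes had 0 falls and 1 rise in 2 bins inside, in Dkk3, and 2 falls and 14 rises in 55 outside, with Sfrp1 not passing the test (0.650 to 0.640) unless centred (adjusted p = 0.0376). With no bin inside, oligodendrocyte genes had 0 falls and 14 rises in 20 bins, hedgehog genes 0 and 5 in 27, and DNA methylation and oxidation genes 1 and 5 in 21.

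Of single members of these lists, Nrxn3 had the largest fall in a bin, from 0.633 to 0.473 (adjusted p = 8.47e-13 by limma), and the AMPA receptor gene Gria1 the next, from 0.586 to 0.465 (adjusted p = 1.66e-07). Falls were also called in at least 1 bin of Ntm (0.570 to 0.479), the kainate receptor gene Grik3 (0.589 to 0.516), the guidance receptor genes Robo2 (0.657 to 0.588) and Epha3 (0.687 to 0.637), the NMDA receptor gene Grin2b (0.506 to 0.456), Grm8 (0.696 to 0.648) and Tenm3 (0.668 to 0.621). Over the whole genes, Ntm had 2 falls and 4 rises in 11 bins and Robo2 4 falls and 1 rise in 7. Only 1 bin fell of 4 in Grik3, 4 in Epha3, 5 in Grin2b, 10 in Grm8 and 7 in Tenm3. The calls in Epha3, Grin2b, Grm8 and Tenm3 were lost without at least 1 cortex library or either olfactory bulb library, and those in Robo2, Grik3 and Ntm without olfactory bulb replicate 2. The calls in Grm8 and Tenm3 were also lost with all bins kept (adjusted p = 0.0861 and 0.0732). In Negr1, Tenm4, Epha5, Epha6, Cntnap4, Ntng1, Gria2, Grin2a, Gabrg3 and Gabra5 no bin passed as a fall. Over the whole genes, rises were called in 5 of 7 bins of Gabrg3, 4 of 5 of Grin2a and 1 of 5 of Ntng1. With each library's median subtracted, the bin of lowest change was called lower in Negr1, Tenm4, Epha6, Gria2, Epha5 and Cntnap4 (adjusted p from 0.000709 to 0.0435 by limma), and without cortex replicate 3 it was called lower in Negr1 and Epha6 (0.0312 and 0.0171).

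Several long genes fell over most of their length. There were 83 coding genes that wholly hold at least 3 bins of 100 kb inside the bulb-biased bins, and 37 of them (44.6%) had a mean 5mC level in every olfactory bulb library below that in every cortex library, where 11.5% of the 433 autosomal genes that hold at least 3 bins had that order. Auts2 had the lowest mean relative to cortex over its 10 bins, with 0.629, 0.656 and 0.618 in cortex, 0.540 and 0.515 in olfactory bulb and 0.743 and 0.719 in cerebellum, and each of the 10 bins fell. Synpr followed with a difference of −0.106 over 3 bins, then the calcium channel gene Cacna1c (−0.102 over 4), the Notch coactivator gene Maml3 (−0.0995 over 3), the zinc finger gene Zfp385b (−0.0983 over 3) and Adarb2 (−0.0923 over 4). In all of these but Zfp385b, in which 2 of 3 fell, every bin fell. Cdk14, a cyclin-dependent kinase gene (−0.0881), Zfp407 (−0.0795), the unconventional myosin gene Myo16 (−0.0784) and the copine gene Cpne4 (−0.0725) completed the 10.

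Cerebellum differed among these 10 genes. In Auts2, Synpr, Adarb2, Cdk14, Zfp407, Myo16 and Cpne4 each bin had more 5mC in cerebellum than in cortex. In Cacna1c and Maml3 cerebellum (0.634 ± 0.0214 and 0.665 ± 0.0114) was near cortex (0.639 ± 0.00981 and 0.670 ± 0.0174). In Zfp385b it was near olfactory bulb, at 0.558 ± 0.000975 against 0.552 ± 0.0174, and all 3 bins were called lower than in cortex.

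The highest means relative to cortex were in Nell2, which encodes a secreted protein of neurons (0.639, 0.644 and 0.615 in cortex, 0.722 and 0.721 in olfactory bulb and 0.732 and 0.713 in cerebellum), in Grin2a (difference 0.0750), in the glycosyltransferase gene Galnt17 (0.0679), in Rgs6, a regulator of G protein signalling (0.0610), and in Nbea, which encodes the trafficking protein neurobeachin (0.0596). Every bin of these 5 genes counted here rose. The largest rises of single bins were over Mical2, which encodes an enzyme that oxidizes actin (0.428 ± 0.0235 in cortex and 0.556 ± 0.00266 in olfactory bulb), Ntm (0.577 ± 0.0166 and 0.684 ± 0.0209), Nell2 (0.619 ± 0.0124 and 0.723 ± 0.00387) and Dkk3 with Usp47 (0.562 ± 0.0185 and 0.665 ± 0.0242). Ntm thus held both a rise listed here and a fall.

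Set against each other at 1 Mb, the difference in 5mC between olfactory bulb and cortex was lower where the difference in 5hmC was higher. Across the 200 bulb-biased bins Pearson's r was −0.46 and Spearman's rho −0.45, and across all 2270 eligible bins −0.69 and −0.64. The points share their libraries within each mark, and neighbouring bins are not independent. In the bulb-biased bins the mean 5mC level in olfactory bulb was below that in cortex in 90 of 200 bins. The median 5mC difference was 0.00227 there and 0.0339 in the other eligible bins. The sum of both marks was higher in olfactory bulb in 172 of the 200 bins, with a median difference of 0.0178 against 0.0109 in the other eligible bins. The lower quartile in these other bins was also positive, at 0.00319, so most of them had the higher sum in olfactory bulb too. Since 5hmC chose the bins, this sum is a description only.

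**Figure D5:**
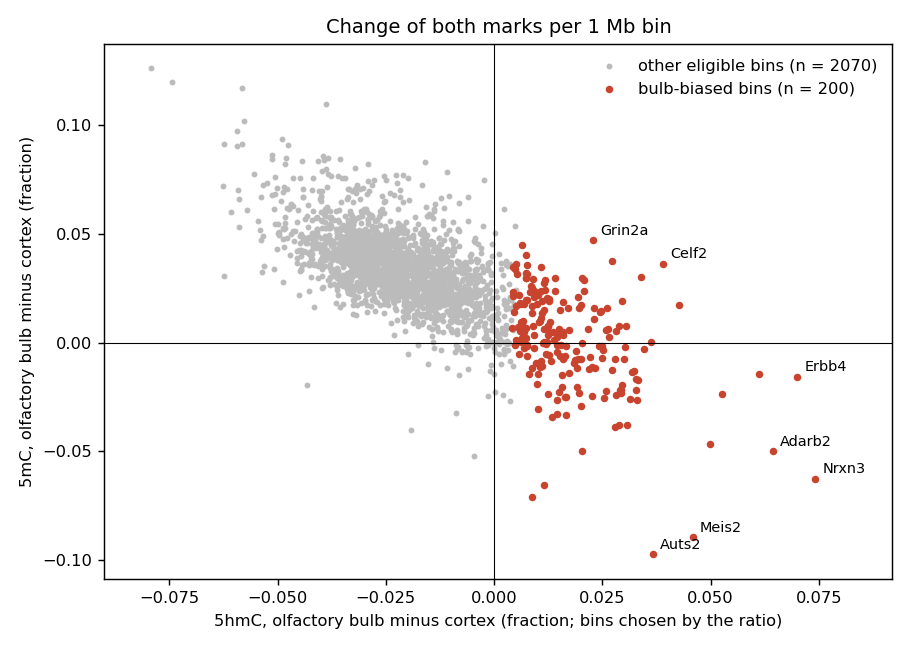
Difference between olfactory bulb and cortex in 5mC (vertical) against that in 5hmC (horizontal), both as fractions; each point is a 1 Mb bin, in red for the 200 bulb-biased bins, chosen by the ratio of 5hmC, and in grey for the other 2070 eligible bins. The bins of Auts2, Meis2, Nrxn3 and Adarb2 lie lowest among the labelled ones. In those of Grin2a and Celf2 both differences are positive, of which the choice of bins fixes that in 5hmC.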

How the data were processed

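Per the labels and the study's methods, reads were placed uniquely on mm10 (GRCm38) by Bismark and CpG sites were called by a binomial test. The authors deposited a fraction per bin and library, without counts or coverage, and the way sites were pooled into a bin is not given in the sources used here. From these fractions, bins listed at 0 or 1 in any of the 7 oxBS-seq libraries were left out, which kept 25664 of 26327 bins of 100 kb, and their unweighted means gave 2581 bins of 1 Mb. The log2 of level/(1 − level) was fitted with limma (version 3.58.1, under R 4.3.3), all 3 tissues together, and two-sided p-values were adjusted after Benjamini-Hochberg. Limma gave all 1 Mb bins of a comparison the same standard error and the 100 kb bins nearly the same, so a p-value hardly reflects the bin's own spread. Bins of a library can shift together, and counts are not of independent bins.

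Genes came from GENCODE release M21, and promoter sequences from RefSeq. Some genes are not reported here and were left out of the lists. The bins and gene lists were chosen with earlier results of these data known. Apart from genes not reported here, the text names the 12 bins of highest ratio, those next to the threshold, the longest runs, the 5 bins at each end of cerebellum 5hmC and of called 5mC changes, the 8 largest falls and 4 largest rises at 100 kb, 10 and 5 long genes, and the genes of the lists in the bins. Alternatives were the fraction scale, centring, limma's trend and robust options, keeping all bins, other rules for the bins, blocks and leaving out each library. Python 3.11.15 with pandas 2.3.3 and matplotlib 3.10.9 did the rest. The RNA-seq libraries were not used here. Sequencing batches are not given in the sources used here.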

Additional observations from a re-analysis of the deposited data

How the results depend on the processing

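The depth behind the levels is unknown, and olfactory bulb and cerebellum have 2 oxBS-seq libraries each. Among the alternative values of the summary results, 172 stayed within the spread or within 1.5 times and 35 moved. With each library's median subtracted, the bulb-biased bins of 100 kb called lower and higher went to 39.7% and 2.4% in olfactory bulb against cortex and to 13.9% and 40.8% in cerebellum against cortex, those lower in cerebellum than in olfactory bulb went to 7.25%, and the 1 Mb bins lower and higher in olfactory bulb went to 80.5% and 0.5%. The shares of all bins with this centring are given above. Keeping all bins, with levels moved just inside 0 and 1, gave 9.05% higher at 100 kb and 5% at 1 Mb, where 21.55% and 38.47% of all bins were. Limma's trend and robust options gave 7% higher at 1 Mb, where 54.71% of all bins were. Leaving out each library in turn gave, in olfactory bulb against cortex, between 5.85% and 17.65% lower and between 3.55% and 15.75% higher at 100 kb and between 3.5% and 25.5% lower and between 0% and 13% higher at 1 Mb, and gave between 2% and 4.15% of 100 kb bins lower in cerebellum than in olfactory bulb.

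Whether equal replicate numbers mark a shared animal is not stated, and deviations of equally numbered libraries correlated between −0.0906 and 0.0725. With the replicate block of the labels' numbers, 25.5% of the bulb-biased 1 Mb bins were lower, where 2.48% of all bins were. Only cortex has an oxBS-seq replicate 3, so this block takes up that library. With the block of the numbers in the library names 15.5% were lower and 26.5% higher, where 1.43% and 80.9% of all bins were. With 100 bins chosen, 7% rose at 1 Mb, where 60.8% of all bins did, and the cerebellum difference in 5hmC was 0.0160. With 400 bins, 4% fell and 19.5% rose, where 0.697% and 60.8% of all bins did, and the cerebellum difference was 0.0211. It was 0.0203 and 0.0117 with a cortex level of at least 0.05 and 0.15, 0.0199 with the difference in place of the ratio, and between 0.0172 and 0.0199 with bins chosen without 1 replicate.

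Of the single bins named, with changes given as log2 ratio, some reversed, and the cause was not tested. With each library's median subtracted these were the 1 Mb bins of Arpp21 (−0.11) and Plpp4 (−0.12) and the 100 kb bins of Gabra5 (−0.18), Mef2c (−0.18), Ntng1 (−0.14) and Gabrg3 (−0.13). The block of the labels' numbers called falls in the 1 Mb bins ranked 1 and 5 and of Erbb4 and Meis1 (adjusted p up to 0.0227 by limma). It also called falls in Negr1 and Epha6 (0.0236 and 0.0126), and gave −0.021 in Gabra5 and −0.042 in Ntng1. These changes equal those without cortex replicate 3, so they are not a separate check. The block of the library names called the bin ranked 5 (0.0278) and lost Gad2 (0.0538). The 1 Mb bin of Grm8, near 0, gave 0.000063 on the fraction scale and 0.029 with the block of the library names. Over the fits that leave out 1 library, the value ran from −0.048 to 0.027 in Grm8, from −0.23 to 0.023 in Sfrp1, from −0.15 to 0.020 in Epha5, from −0.12 to 0.064 in Cntnap4, from −0.021 to 0.073 in Gabra5 and from −0.042 to 0.195 in Ntng1. None of these passed the test in the reported fit.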
